A study of Homo sapiens with 2 samples.

Results

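The TRiC chaperonin, also called CCT, is a cytosolic folding machine made of a pair of stacked rings, each holding 1 copy of each of 8 related subunits. Its subunit genes are TCP1 (alpha), CCT2 (beta), CCT3 (gamma), CCT4 (delta), CCT5 (epsilon), CCT6A (zeta), CCT7 (eta) and CCT8 (theta). They were chosen by name among the protein-coding genes of the deposited expression table. All 8 were found, out of 58735 genes of which 19951 are protein-coding. TRiC encloses newly made proteins in its central chamber and uses ATP to close a built-in lid. Actin and tubulin, the building blocks of the cytoskeleton, cannot reach their folded form without it, and several WD-repeat proteins also depend on it. Prefoldin hands clients over to TRiC, phosducin-like proteins bind it as cofactors, and heat shock factors are known to act on its subunit genes.

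The data are 2 RNA sequencing libraries of SH-SY5Y, a human neuroblastoma cell line, grown in DMEM with fetal bovine serum. One library came from cells exposed for 24 h to TDCPP, a chlorinated organophosphate flame retardant, together with titanium dioxide nanoparticles (TDCPP and TiO2 NPs), and 1 from control cells (Ctrl). Doses, and cells given either agent alone, are not described in the labels, whose treatment field holds the same word for both samples, so the groups were read from the titles. The comparison asks how the subunit messages differed between mixture-exposed and control cells. With 1 library per group there is no replicate check and no test, and no difference given here is shown to exceed the spread between cultures.

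Levels are FPKM, the fragments of a gene per kilobase of its exons, divided by a library size that the authors set. That size was 1.03 times the reads on genes in the exposed library and 0.971 times in the control library. Ratios of FPKM, exposed over control, are therefore lower than ratios of read shares. The exposed library held 15315572 reads on genes and the control library 16471438. A protein-coding gene counted as measured where its FPKM averaged 1 or more over both libraries, which 11409 genes met, all 8 subunits included. Of 10 markers of sympathetic neuroblasts, the cells from which neuroblastoma arises, only GATA3 (4.69 FPKM exposed, 5.82 FPKM control) and HAND2 (0.916 and 1.13 FPKM) were measured. PHOX2A, TH, STMN2 and ELAVL4 had 0 reads in both libraries, which allows up to 3 reads each. Most markers of the labelled cell type were thus absent or near 0.

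All 8 subunit messages were lower in the exposed library. Their summed level was 914 FPKM in exposed cells and 1189.5 FPKM in control cells, a ratio of 0.768. With equal read totals this ratio was 0.814. Reads of the 8 genes made up 0.375% of the exposed library (95% Wilson interval 0.372% to 0.378%) and 0.462% of the control library (0.459% to 0.465%). The ratio of each subunit had a counting interval wholly under 1, as did 36% of all measured genes at this depth. Intervals narrow as reads rise, and most measured genes had a lower level than the subunits, so these shares are not like for like. The share among genes of similar level was not taken. These intervals are exact conditional binomial 95% intervals of the read ratio. They cover counting error only and compare these libraries, not the conditions. In bulk RNA, fewer expressing cells and less message per cell cannot be told apart.

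**Figure D1:**
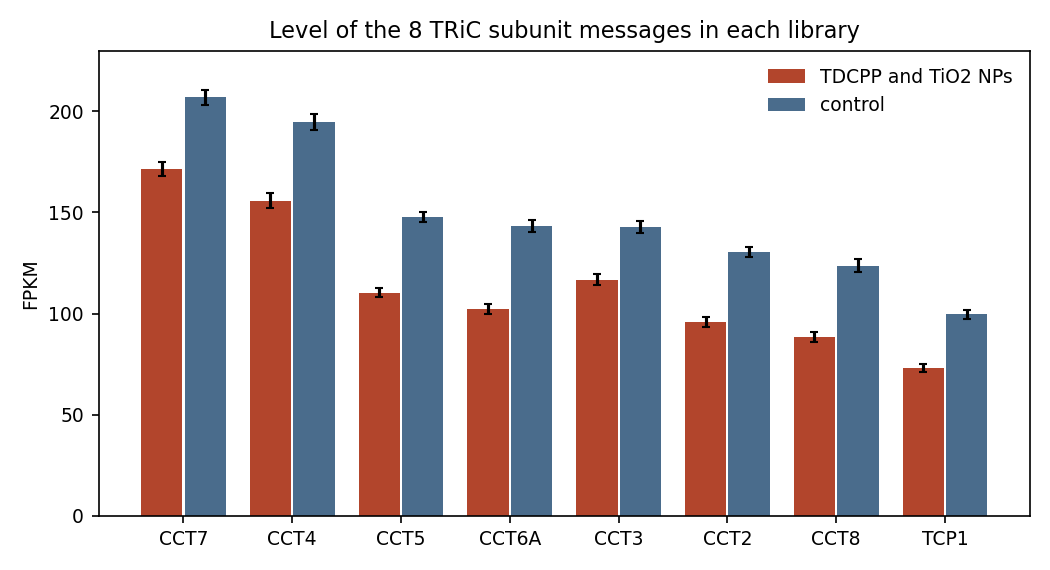
Level in FPKM of each TRiC subunit message in the exposed library (red, left bar) and the control library (blue, right bar), ordered by control level. Error bars are exact Poisson 95% intervals of the reads, which cover counting error only; every exposed bar is shorter than its control bar, and CCT7 is the highest and TCP1 the lowest in both libraries.

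CCT7 had the highest level, at 171 FPKM in exposed and 207 FPKM in control cells, a ratio of 0.827 (0.805 to 0.850). CCT4, which lies beside TCP1 in the ring, stood at 156 FPKM in exposed and 195 FPKM in control cells, a ratio of 0.801 (0.776 to 0.827). CCT3 stood at 117 FPKM in exposed and 143 FPKM in control cells, a ratio of 0.817 (0.793 to 0.843). These 3 subunits showed the smallest differences.

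CCT5, in which a mutation causes a hereditary sensory neuropathy, stood at 110.3 FPKM in exposed and 148 FPKM in control cells, a ratio of 0.746 (0.727 to 0.765). CCT2 stood at 95.8 FPKM in exposed and 130.4 FPKM in control cells, a ratio of 0.735 (0.712 to 0.759). TCP1, the gene after which the complex was first named, had the lowest level, at 73.0 FPKM in exposed and 99.6 FPKM in control cells, a ratio of 0.733 (0.708 to 0.759). Their counting intervals overlapped one another.

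CCT6A stood at 102 FPKM in exposed and 143 FPKM in control cells, a ratio of 0.714 (0.691 to 0.737). CCT8 stood at 88.3 FPKM in exposed and 124 FPKM in control cells, a ratio of 0.714 (0.687 to 0.741). These were the lowest ratios of the complex. The counting intervals of the 3 subunits with the smallest differences lay at or above 0.776, and those of the other 5 at or under 0.765, so the members divided into ranges that counting error alone did not bridge. This division was seen in the values and was not fixed beforehand.

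To set the subunits beside other genes, 1 was added to each FPKM and the base 2 logarithm of exposed over control was taken (the log2 ratio), which understates the difference of genes at low level. The subunits ran from -0.48 (CCT8 and CCT6A) through -0.44 (TCP1 and CCT2), -0.42 (CCT5), -0.32 (CCT4) and -0.29 (CCT3) to -0.27 (CCT7), with a median of -0.43. The median of all measured genes was -0.05. By a fixed rule of size, 5 of the 8 subunits were at least 20% lower (a ratio of FPKM + 1 of 0.8 or less), against a background of 13.5% of measured genes, and 0 were at least 25% higher, against 8.98%. CCT5 was the member just inside that threshold and CCT4 the member just outside it. At 1.5-fold, 0 of the 8 were lower, against 2.16% of measured genes, and 0 were higher, against 2.53%. Abundant genes were lower more often: of the 184 other measured genes with a mean FPKM within the range of the subunits, 26.6% were at least 20% lower, 7.61% were at least 25% higher, and the median log2 ratio was -0.19. At 1.5-fold, 4.89% of these 184 genes were lower and 4.35% were higher. When the FPKM of each library were rescaled to equal sums, the count at least 20% lower was 2 of 8, CCT6A and CCT8, against 6.80% of measured genes under that scaling.

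**Figure D2:**
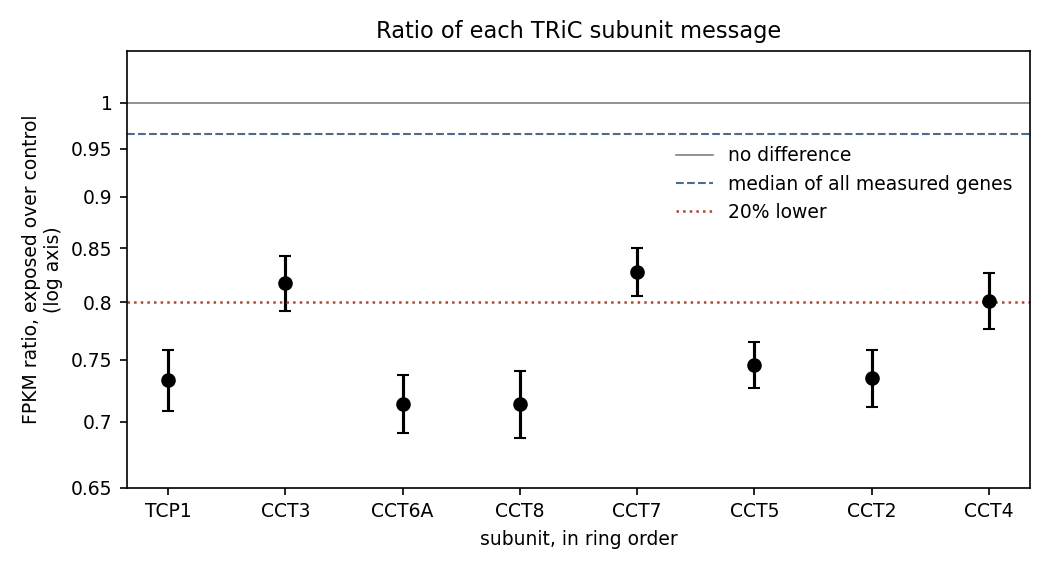
FPKM ratio of exposed over control (log axis) for each TRiC subunit, in the order in which the subunits sit around the ring, with exact conditional binomial 95% counting intervals. All 8 points lie under the median of all measured genes (dashed), and CCT3, CCT7 and CCT4 lie above the other 5, around the line for 20% lower (dotted).

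Around the ring, whose order is TCP1, CCT3, CCT6A, CCT8, CCT7, CCT5, CCT2 and CCT4, none of the subunits with the smallest differences was adjacent to another of them. In yeast, the subunits corresponding to TCP1, CCT2, CCT4 and CCT5 bind ATP more tightly than the others. The log2 ratios of these 4 had a median of -0.43, and those of CCT3, CCT6A, CCT7 and CCT8 had a median of -0.39, with the highest and the lowest ratio of the complex both in the second set.

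The assembled complex holds the subunits in equal numbers, whereas the levels of their messages differed 2.35-fold between the highest and the lowest in exposed cells and 2.08-fold in control cells. CCT7 took 18.7% of the summed FPKM in exposed cells and 17.4% in control cells, the largest difference in share, and CCT6A took 11.2% in exposed and 12.0% in control cells. CCT4 took 17.1% in exposed and 16.4% in control cells, and TCP1 took 7.99% in exposed and 8.37% in control cells.

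Comparing levels between subunits depends on the length by which reads are divided. The deposited length is that of all annotated exons of a gene merged, and it runs from 2830 bases for CCT4 to 5839 bases for CCT5. The principal transcripts in the GENCODE annotation are shorter, at 2520 bases in 14 exons for CCT4 and 3675 bases in 11 exons for CCT5. Divided by the length of the principal transcript, CCT7 remained the highest, at 321 rescaled FPKM in exposed and 388 in control cells, and TCP1 remained the lowest, at 144 in exposed and 196 in control cells. CCT4 then stood at 175 in exposed and 219 in control cells, under CCT2 at 203 in exposed and 276 in control cells, so its place near the top rested on the merged length. CCT6A (147 exposed, 205 control) and CCT8 (147 and 206) lay close to TCP1 on this scale.

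Near-identical copies can take reads of a parent gene. The table lists 13 pseudogenes of the subunits, of which 6 had any reads, 303 in the exposed library and 298 in the control library, or 0.528% and 0.391% of the parent genes' reads. CCT6P1, a transcribed copy of CCT6A on chromosome 7, held most of them, with 194 reads in exposed and 189 in control cells, a ratio of 1.04 (0.848 to 1.28). CCT6P3 had 68 reads in exposed and 70 in control cells, and CCT8P1 had 35 in exposed and 36 in control cells. Adding these reads to the parents left the summed ratio at 0.769.

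The genes that most resembled the subunits in these libraries were sought among the 184 genes of similar level, by the distance of their log2 ratio from the subunit median. The nearest 5 were TOP2A (-0.43), a topoisomerase of dividing cells, STIP1 (-0.43), a co-chaperone that links HSP70 to HSP90, CALM3 (-0.43), a calmodulin gene, RAN (-0.43), the GTPase of nuclear transport, and RRM1 (-0.43), a subunit of ribonucleotide reductase. With 2 libraries, likeness means only a similar level and a similar ratio.

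The subunit genes are spread over 7 chromosomes. In GRCh38, TCP1 lies on chromosome 6 (159778498 to 159789749), CCT2 on chromosome 12 (69585334 to 69601570), CCT3 on chromosome 1 (156308968 to 156367873), CCT4 on chromosome 2 (61868089 to 61888804) and CCT5 on chromosome 5 (10249921 to 10266412). CCT6A lies on chromosome 7 (56051630 to 56063989), CCT7 on chromosome 2 (73233420 to 73253021) and CCT8 on chromosome 21 (29055805 to 29073797). Of the 8 genes, 6 have a protein-coding neighbour that overlaps them or lies within 1000 bases. By the GENCODE 5′ ends, 5 are arranged head to head with one, on opposite strands with starts within 1000 bases. For CCT3 and its neighbour TSACC the arrangement depends on the start used, as the RefSeq start of CCT3 lies 29581 bases inside the gene. The neighbours were looked up after the subunit values were known.

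PSPH, the last enzyme of serine synthesis, starts 26 bases from CCT6A on the opposite strand. It had 869 reads in exposed and 572 in control cells, a ratio of 1.54 (1.39 to 1.72). SUMF2, a sulfatase-modifying factor gene 12 bases past the other end of CCT6A, stood at 25.0 FPKM in exposed and 17.5 FPKM in control cells, a ratio of 1.43 (1.33 to 1.54). CCT6A was thus lower between neighbours that were both higher.

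COMMD1, a gene of endosomal sorting whose first 81 bases overlap CCT4, had 138 reads in exposed and 99 in control cells, a ratio of 1.41 (1.08 to 1.85). MRPL18, a mitochondrial ribosomal protein gene that starts 63 bases from TCP1, stood at 34.4 FPKM in exposed and 35.6 FPKM in control cells, a ratio of 0.968 (0.874 to 1.07). FAM173B, which starts 24 bases from CCT5, stood at 10.8 FPKM in exposed and 13.2 FPKM in control cells, a ratio of 0.823 (0.721 to 0.937). Of the head-to-head partners, FAM173B and PRADC1 therefore had intervals that overlapped that of their subunit, and PSPH, COMMD1 and MRPL18 did not. Overlap depends on the reads of the partner, and the wide interval of PRADC1 (0.695 to 1.13) also spanned 1. The share of overlaps among other neighbouring pairs was not taken, so these pairs are only described.

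PRADC1, which starts 182 bases from CCT7, had 131 reads in exposed and 150 in control cells, a ratio of 0.886 (0.695 to 1.13). ACAT2, an acetyl-CoA acetyltransferase gene whose end overlaps that of TCP1 by 558 bases on the opposite strand, had 598 reads in exposed and 1101 in control cells, a ratio of 0.551 (0.498 to 0.609). TSACC, which overlaps CCT3, had 33 reads in exposed and 25 in control cells. No source used here says that counting used strand, so reads within these overlaps cannot be told apart.

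**Figure D3:**
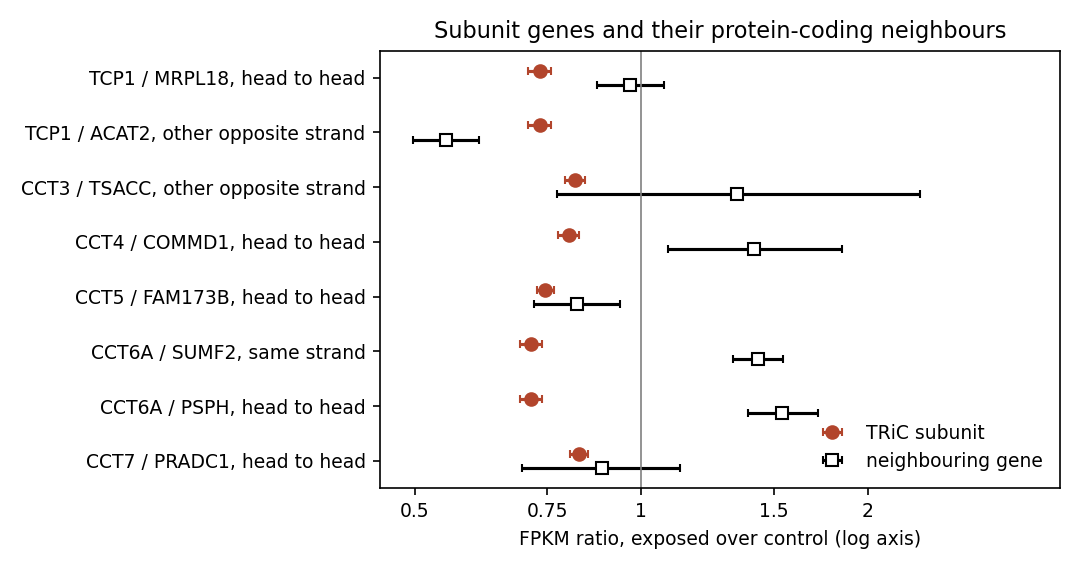
FPKM ratio of exposed over control (log axis) for TRiC subunit genes (red circles) and the protein-coding genes that overlap them or lie within 1000 bases (open squares), with exact conditional binomial 95% counting intervals. PSPH and SUMF2 lie above 1 on either side of CCT6A, and ACAT2 lies left of TCP1.

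The stretch between the annotated 5′ ends of TCP1 and MRPL18 is shown because it separates a lower message from one whose interval spanned 1. It is 62 bases long (chr6:159789750-159789811, GRCh38.p14, RefSeq) and is written on the strand of TCP1, with capitals marking a CCAAT box in reverse complement.
TCP1 and MRPL18: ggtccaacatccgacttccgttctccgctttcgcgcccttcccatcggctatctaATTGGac

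RefSeq promoter windows, from 250 bases before to 50 after a start, were found for 7 of the 8 subunit genes (9 windows) and searched on both strands for 4 motifs. The CCAAT box (CCAAT), bound by the factor NF-Y, was found in 4 of the 9 windows, of TCP1, CCT2, CCT3 and CCT8, against 34.6% of 35116 promoter windows. The heat shock element (GAANNTTC) was found in 2 of the 9 windows, of TCP1 and CCT2, against 6.77% of windows. The CCT2 match lay only in the window whose start is 555 bases inside the gene. The TCP1 match lay inside the neighbouring gene MRPL18. The E-box CACGTG and the ATF4 site TGATGNAA were found in 0 of the 9, against 7.26% and 3.62% of windows. A match is only a description of letters. The RefSeq starts lie inside the GENCODE genes, by 125 bases at the least (CCT2) and 29581 at the most (CCT3). The windows of CCT3, CCT5 (start 616 bases inside) and CCT7 (888 bases) lay wholly inside their genes, as did the CCT2 window that held the heat shock element match. The matches outside the stretch above are shown 5′ to 3′ on the strand of the gene, with the motif in capitals, to let the contexts be compared.
CCT2, heat shock element (chr12:69585790-69585817): ccggagcgaaGAAATTTCtagtgtggga
TCP1, heat shock element (chr6:159789816-159789843): cgtttgaggcGAAGGTTCaacctcttcc
CCT2, CCAAT box (chr12:69585358-69585382): ccgtggggctCCAATcaaaatggga
CCT3, CCAAT box (chr1:156338353-156338377): aaggctgtcaATTGGtctgtttttg
CCT3, CCAAT box (chr1:156338312-156338336): gggtgcggtgATTGGcgactacctt
CCT8, CCAAT box (chr21:29073697-29073721): gggtgggctaATTGGagagccagga

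The CCAAT box was found both in genes with lower ratios (TCP1, CCT2 and CCT8) and in CCT3, which had a pair of them and one of the higher ratios. A link between motif and ratio was not tested. CCT4, CCT5 and CCT7 matched 0 of the 4 motifs, and CCT6A was not searched.

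Genes that work with TRiC were then described. Prefoldin, the complex of 6 subunits that delivers unfolded actin and tubulin, had log2 ratios on both sides of 0. VBP1 stood at 44.1 FPKM in exposed and 52.3 FPKM in control cells (log2 ratio -0.24), PFDN1 at 31.2 and 38.1 FPKM (-0.28) and PFDN4 at 14.7 and 19.3 FPKM (-0.38). PFDN5 stood at 28.1 FPKM in exposed and 29.3 FPKM in control cells (-0.06), PFDN2 at 47.0 and 41.2 FPKM (0.19) and PFDN6 at 7.37 and 6.41 FPKM (0.17). Counting intervals of the FPKM ratio spanned 1 for PFDN5 (0.894 to 1.03) and PFDN6 (0.981 to 1.34), and that of PFDN2 began at 1.003. Those of VBP1, PFDN1 and PFDN4 lay under 1. The median log2 ratio was -0.15. As deposited, 1 of 6 was at least 20% lower, beside 13.5% of measured genes, and 0 were under the 5 other scalings.

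All 3 measured TRiC cofactor genes were at least 20% lower as deposited, beside 13.5% of measured genes, and 2 of 3 under each of the 5 other scalings. PDCL3, a phosducin-like protein, stood at 12.2 FPKM in exposed and 18.4 FPKM in control cells (log2 ratio -0.55), TXNDC9, a thioredoxin-like partner, at 11.8 and 17.0 FPKM (-0.49), and PDCL, which helps TRiC assemble G protein beta-gamma dimers, at 11.2 and 14.8 FPKM (-0.37). PDCL2 was not measured, with 3 reads in exposed and 0 in control cells. The 6 measured cofactors that take tubulin onward after TRiC had a median of 0.02, with TBCA at -0.34, ARL2 at 0.03, TBCB at 0.00 and TBCC at 0.13, and only TBCA was at least 20% lower as deposited, with 0 under the 5 other scalings.

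The median log2 ratio of the main clients lay under that of the subunits, although single genes of both lists overlapped. All 12 measured actin and tubulin genes were at least 20% lower, beside 13.5% of measured genes. At least 1.5-fold lower were 8 of them, beside 2.16%, and their median log2 ratio was -0.66. TUBA1C (-0.37) lay above 5 of the 8 subunits, and TUBB6 (-0.48) lay within their range; these genes were chosen after their values were seen. With the FPKM of each library rescaled to equal sums, 11 of the 12 were at least 20% lower, beside 6.80% of measured genes, and 4 at least 1.5-fold lower. ACTG1 stood at 821 FPKM in exposed and 1208 FPKM in control cells, ACTB at 523 and 835 FPKM, TUBB4B at 307 and 546 FPKM and TUBB at 291 and 462 FPKM. The summed level of the 12 was 2.48 times that of the 8 subunits in exposed cells and 2.98 times in control cells. Of the 14 other clients, all measured, 5 were at least 20% lower, beside 13.5% of measured genes. At least 25% higher was 1, beside 8.98%. With equal sums 3 were at least 20% lower, beside 6.80%. The median of the 14 as deposited was -0.17. Among them CDC20, the mitotic activator that TRiC folds, stood at -0.40, the G protein beta genes GNB1 and GNB2 at -0.04 and -0.10, and MLST8, a part of mTOR complexes, at 0.13.

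**Figure D4:**
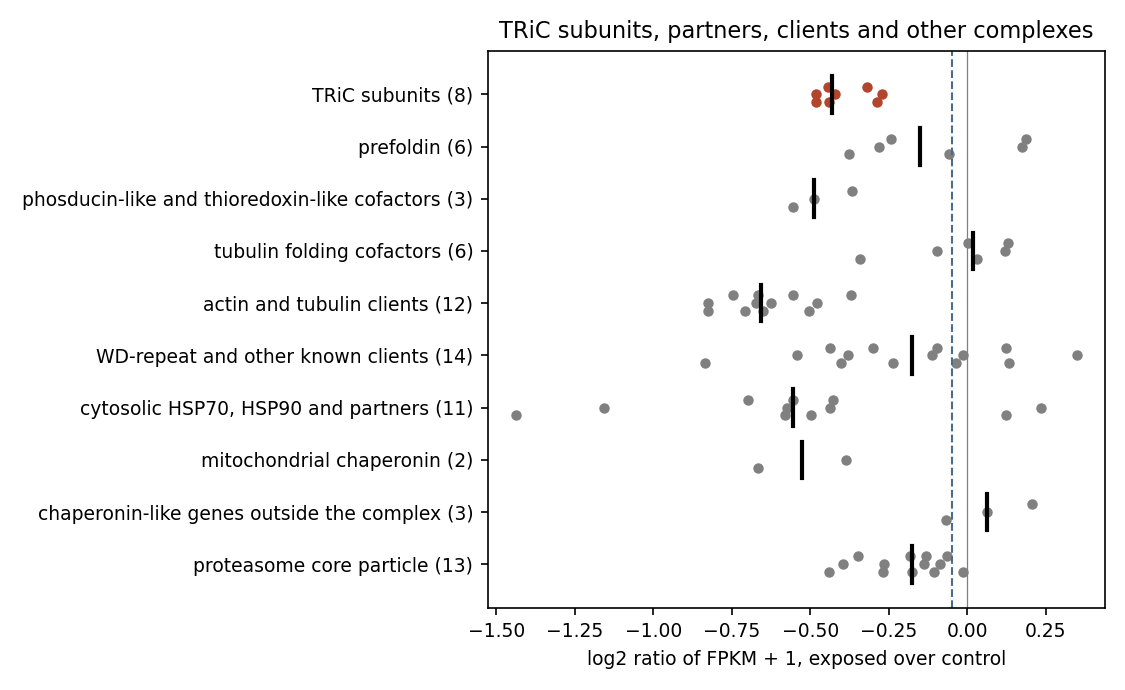
Log2 ratio of FPKM + 1 (exposed over control) of each measured gene in the TRiC complex (red) and in lists of its partners, clients and other chaperones and complexes (grey), with the number measured in parentheses and the list median as a black bar. The dashed line is the median of all measured genes; the 8 subunits lie closer together than the members of most lists, and their median lies between those of prefoldin and of the actin and tubulin genes.

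Of 11 cytosolic HSP70, HSP90 and partner genes, 9 were at least 20% lower, beside 13.5% of measured genes, with a median of -0.55. The exceptions, named after their values were seen, were higher in the exposed library. They were DNAJB1, at a log2 ratio of 0.12, and HSF1, a heat shock factor gene, at 0.24. By the mean of both libraries, the 4 most abundant were HSP90AB1 (-0.50), HSP90AA1 (-0.55), HSPA8 (-0.58) and STIP1 (-0.43). HSPA1B, a stress-inducible HSP70 gene named after its values were seen, stood at 60.8 FPKM in exposed and 137 FPKM in control cells (-1.16), above STIP1 in the control library. Its near-identical copy HSPA1A, also named after its values were seen, had 123 reads in exposed and 406 in control cells (-1.44). Both copies were thus lower, and how reads were divided between them is uncertain. The mitochondrial chaperonin, a distant relative of TRiC that closes with a separate lid, had log2 ratios of -0.38 for HSPD1, its ring, and -0.67 for HSPE1, its lid; both were at least 20% lower as deposited, and 1 with equal sums. The core particle of the proteasome, another ring-shaped complex, had a median of -0.18 over 13 measured genes. PSMA7 stood at -0.27, PSMB4 at -0.10, PSMB3 at -0.26 and PSMB7 at -0.01. As deposited, 3 of 13 were at least 20% lower, beside 13.5% of measured genes. The count was 0 of 13 with equal sums, beside 6.80%, and 1 with equal read totals, beside 8.52%. The 3 measured chaperonin-like genes that build the BBSome rather than TRiC stood at -0.07 (BBS10), 0.21 (MKKS) and 0.06 (BBS12). CCT6B, the testis-type relative of CCT6A, had 54 reads in exposed and 44 in control cells and was not measured.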

How the data were processed

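Total RNA (RNeasy, Qiagen) was made into SMARTer mRNA-Seq libraries, per the labels' protocols. The authors deposited 1 FPKM value per gene and library. No aligner or counter is named (not given in the sources used here). GRCm38 and mm10, both mouse builds, stand in the submitters' processing notes, but 100% of the 58735 identifiers, starts and ends equal those of human GENCODE release 29 (GRCh38), so those coordinates are used. FPKM times gene length gave whole reads, within 0.001, for 100% of values above 0. Ratios are of FPKM as deposited, without further scaling; log2 ratios use a pseudocount of 1. Reads were treated as independent, without molecular identifiers. Read recovery and intervals were tested on simulated data. Python 3.11.15, pandas 2.3.3 and SciPy 1.17.1 were used. Named genes were the 8 subunits, all of prefoldin and the mitochondrial chaperonin, up to 4 most abundant measured genes of each other list, and the 5 most alike genes. Neighbours, pseudogenes, motif matches, genes not measured and genes marked as chosen after their values were seen are named besides. The members and lists were chosen with earlier results of these data known. Alternatives covered scaling, pseudocount, filter, pseudogene reads and gene length.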

Additional observations from a re-analysis of the deposited data

How the results depend on the processing

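All 72 member values (8 subunits under 9 alternatives) stayed under 0, between -0.49 and -0.15, and 40 of them left the counting interval, all under other scalings. FPKM rescaled to equal sums shifted the median over measured genes by 0.11, and gave a subunit median of -0.31; it moved the summed ratio to 0.837 and the number of subunits at least 20% lower to 2, against 6.80% of measured genes. Equal read totals gave -0.35 and 0.814, a trimmed mean set to 0 gave -0.37 and 0.799, equal 75th percentiles gave -0.37 and 0.801, and scaling without the 100 most abundant and mitochondrially encoded genes gave -0.36 and 0.808, each with 5 subunits at least 20% lower, against 8.52%, 9.81%, 9.62% and 8.92% of measured genes in that order. Relative to the median of all measured genes, the subunit median was -0.38 as deposited and -0.36 with equal sums. Under other scalings the count of prefoldin and of tubulin cofactor genes at least 20% lower was 0, that of TRiC cofactors 2 of 3, and that of actin and tubulin genes 11 of 12; with equal sums it was 7 of 11 for HSP70 and HSP90 genes, 3 of 14 for other clients, 1 of 2 for the mitochondrial chaperonin and 0 of 13 for the proteasome. The share of genes at least 20% lower was 10.4% with no filter and 14.5% at a mean FPKM of 5. The principal transcript length was added after the data were seen. No paired analysis was possible because each group has 1 library.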
